A study of Mus musculus with 4 samples.

Results

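Wnt ligands, the Frizzled receptors that bind them and the secreted inhibitors that act on the pathway outside the cell were followed in 4 lines of mouse embryonic fibroblasts (MEFs), cells grown out of whole embryos. Members were taken by name: every probe on the array, controls left out, for a gene whose name starts with Wnt, Fzd, Sfrp or Dkk followed by a number. This gave 49 of 41174 probes and 37 of 28307 genes, of which 19 were ligands on 23 probes, 10 were receptors on 16 probes and 8 were inhibitors on 10 probes. The study compared 2 Ip6k1+/+ with 2 Ip6k1-/- lines to see which genes change when inositol hexakisphosphate kinase 1, an enzyme that makes inositol pyrophosphates, is lost. Each line came from a separate embryo at E14. The mother, heterozygous for Ip6k1, had been mated with a heterozygous male, and all 4 lines, controls included, were immortalised with SV40 large T antigen. A genotype is therefore represented by 2 immortalised lines of 1 cross, and the p-values below rest on the spread between lines. In limma, the program used, this spread and the standard errors are drawn partly from other probes of similar level. RNA of each growing line was hybridised in a single colour to 1 Agilent whole-genome array. In such bulk RNA, fewer cells that express a gene and less RNA per cell cannot be told apart.

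Wnt proteins are secreted lipid-modified ligands that act over short distances. In the canonical branch a Wnt protein brings together a Frizzled receptor and the co-receptor Lrp5 or Lrp6, which stabilises beta-catenin and lets it act with TCF and LEF factors in the nucleus. In the noncanonical branches, for which Wnt5a and Wnt11 are best known, Frizzled and Ror2 signal to the cytoskeleton without beta-catenin. The secreted Frizzled-related proteins (Sfrp) carry a domain like that of Frizzled and can bind Wnt proteins, and Dkk1, Dkk2 and Dkk4 bind the Lrp co-receptors, whereas Dkk3 is a divergent member of its family. In mesenchymal cells such as fibroblasts, Wnt signals take part in deciding between growth, bone, cartilage and fat fates.

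Values below are the log2 of the background-corrected spot signal minus the 75th percentile of the same array, so that 0 is the level of that percentile, and a value is compared between lines for the same probe only. Between 52% and 55.5% of the probes were well above background on an array, as flagged by the extraction software, and other values are called undetected or not well above background. The targeted gene matched the labels: on the Ip6k1 probe measured in all lines the level was 2.46 and 2.61 in Ip6k1+/+ MEFs, against -1.98 and -1.23 in Ip6k1-/- MEFs. On another Ip6k1 probe, which neither Ip6k1-/- line raised well above background, Ip6k1+/+ MEFs were at least 34.0-fold higher, with an adjusted p of 0.0355 in limma. All 8 fibroblast markers were detected on every array, and their summed level (in multiples of the 75th percentile) was 462 to 471 in the Ip6k1+/+ and 402 to 432 in the Ip6k1-/- lines. None of the 4 skeletal muscle markers was detected on any array. All 3 cartilage markers and 2 of 3 adipocyte markers (Adipoq on none) were also detected on every array, with levels given below. Of the remaining lists some markers were detected on every array: 1 of 4 endothelial (Cdh5, Pecam1 and Tek on none), 2 of 4 blood cell (Ptprc and Itgam on none), 1 of 5 epithelial (Cdh1 on none) and 1 of 4 neural (Gfap on none). The summed epithelial level was 0.724 and 3.12 in Ip6k1+/+ against 0.476 and 1.56 in Ip6k1-/- MEFs, the blood cell level was 0.65 to 0.823 over the lines, and the neural level was 1.06 to 3.24. Xist, the RNA made from the inactive X chromosome, was at 3.55 in Ip6k1+/+ replicate 1 and at 3.65 in Ip6k1-/- replicate 2, and the remaining lines gave no signal well above background.

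Each value rests on a probe of 60 bases, and the 5′ part of the probes that the results turn on is shown, 30 bases each, to identify what was measured. They are those of Dkk3, Sfrp1 and Fzd6, the 3 members past the fold rule defined below, of the neighbouring ligand genes Wnt6 and Wnt10a, and of Wnt9a and Wnt5a. Positions are on build mm9, as named in the headers, and whether a probe lies in a coding exon or a UTR is not given in the sources used here. Sequences are in lower case throughout, since no base is singled out.
Dkk3, chr7:119260828-119260887, minus strand: gaatgaaatttgcaaagtcgcttagcaaca
Sfrp1, chr8:24558112-24558171, plus strand: cggaatcagtatagcgtggaaggagacagt
Sfrp1, other probe, chr8:24558800-24558859, plus strand: gtgcattagtaattagaaatagtctaacct
Fzd6, chr15:38869107-38869166, plus strand: ggccgagctgtcgattccccttttaagtgt
Wnt6, chr1:74831361-74831426, plus strand: attcccctgaaaggccctttgctagttctg
Wnt10a, chr1:74850633-74850692, plus strand: tttcacttaacagatatttatttttgcgct
Wnt9a, chr11:59146696-59146755, plus strand: aaacgtctgccggctggtttgtttctgtat
Wnt5a, chr14:29331746-29335708, plus strand: caatgaagcaggccgtaggacagtatacaa
The Wnt5a probe spans 3963 bases of the genome, more than its own length, so its ends lie in different exons. The probes of Wnt6 and Wnt10a lie 19.2 kb apart, and those of Wnt10b and Wnt1 on chromosome 15 lie 21.1 kb apart.

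Promoters were examined as sequence only. The RefSeq table for GRCm38.p6 held 28 start sites of 25 member genes, each with 250 bases before and 50 after the start. The motifs searched, on both strands, were ATCAAAG, the core bound by TCF and LEF factors, GGGCGG, the GC box bound by Sp1, and TATAAA, the TATA box. The TCF/LEF core was present in 2 of 28 member windows (7.14%), 1 of Wnt11 and 1 of Wnt5b, against 3.73% of all 32851 windows. The windows at the other start sites of these genes lacked it. The GC box was present in 21 of 28 (75%) against 35.7% of all windows, and TATAAA in 4 of 28 (14.3%) against 13.6%. The 250 bases before the Wnt11 start site with all 3 motifs, and before that of Wnt6, with 6 GC boxes and neither of the others, are shown with the matches in capitals. The other Wnt11 window held a GC box only. In Wnt11 a GC box directly adjoins the TCF/LEF core, and another pair of GC boxes overlaps.
Wnt11, GRCm38.p6 chr7:98834862-98835111, plus strand: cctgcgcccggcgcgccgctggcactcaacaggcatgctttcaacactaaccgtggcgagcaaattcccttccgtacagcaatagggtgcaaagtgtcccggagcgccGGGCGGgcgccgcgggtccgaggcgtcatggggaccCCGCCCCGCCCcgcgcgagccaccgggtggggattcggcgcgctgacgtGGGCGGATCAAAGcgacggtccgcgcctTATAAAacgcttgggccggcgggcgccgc
Wnt6, GRCm38.p6 chr1:74771642-74771891, plus strand: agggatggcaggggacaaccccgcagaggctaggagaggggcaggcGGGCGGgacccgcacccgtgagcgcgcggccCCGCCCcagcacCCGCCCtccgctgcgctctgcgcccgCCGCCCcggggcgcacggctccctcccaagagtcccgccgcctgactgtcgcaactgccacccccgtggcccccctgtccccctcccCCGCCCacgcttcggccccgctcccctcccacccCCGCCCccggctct

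The receptors were more widely detected than the ligands or the inhibitors. A gene was tested when a probe of it was well above background in both lines of at least 1 genotype. That held for 9 of 10 receptors (90%), 10 of 19 ligands (52.6%) and 4 of 8 inhibitors (50%), against 51.4% of all genes on the array. Not well above background on any array were the ligands Wnt2b, Wnt3, Wnt3a, Wnt8a, Wnt8b and Wnt9b, with levels of -7.41 to -4.79. The same was true of Fzd10, at -7.47 to -6.87, and of Dkk1, Dkk4, Sfrp4 and Sfrp5, at -7.44 to -5.45. The remaining 3 ligands were seen on 1 array each. Wnt7a was at -3.72 in Ip6k1-/- replicate 1 and undetected elsewhere, and Wnt1 and Wnt4 were detected in Ip6k1+/+ replicate 1 alone, at -5.20 and -4.54. Wnt3a, the ligand used most often to start canonical signalling in culture, and Dkk1, the best known inhibitor of Lrp6, were thus among the undetected genes. No member probe was saturated.

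**Figure D1:**
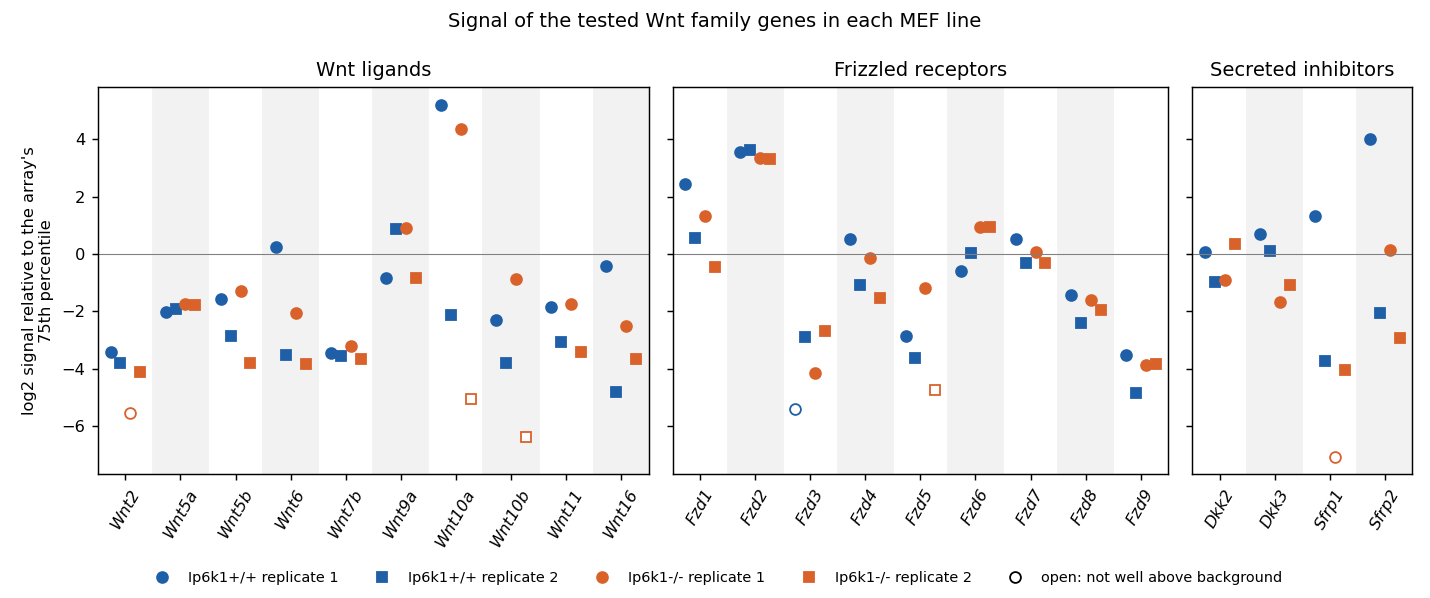
Signal of the 23 tested genes in each line. The vertical axis is the log2 signal relative to the 75th percentile of the array, circles are replicate 1 and squares replicate 2 of each genotype, and open symbols mark values not well above background. Levels of Fzd2 and Wnt5a lie close together in all 4 lines, whereas Wnt10a runs from 5.21 to -5.06 and Sfrp2 from 4.00 to -2.92.

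Between genotypes, limma called none of the 23 tested members (adjusted p of 0.05 or less), and the lowest adjusted p was 0.993. Of all 14545 genes tested, limma called 0% higher and 0.00688% lower, which is 1 transcript. Ip6k1 itself, counted on its probe of highest mean level, had an adjusted p of 0.367 in limma and so was not that transcript. At an unadjusted p of at most 0.05 stood 2 members, Dkk3 and Fzd6, in limma, where 3.66% of all genes did. A second measure, called the fold rule here, asks that the mean log2 levels differ by 1 or more and that each Ip6k1-/- line be 0.9 or more to that side of the Ip6k1+/+ mean. By it Fzd6 was higher, 1 of 23 members where 1.07% of all genes were, and Dkk3 and Sfrp1 were lower, 2 of 23 members where 2.08% of all genes were. Both Ip6k1-/- lines lay above both Ip6k1+/+ lines for Fzd6 and Wnt5a, 2 of 23 members where 18.2% of all genes did. They lay below for Dkk3, Sfrp1, Wnt2 and Fzd2, 4 of 23 where 13.2% of all genes did. The median difference, Ip6k1-/- minus Ip6k1+/+, was -0.27 over the members and 0.04 over all genes tested. Of the members 9 were above 0 and 14 below, against 8017 and 6528 of all genes. Wnt2, Wnt10a, Wnt10b and Sfrp1, all below 0, were tested only because both Ip6k1+/+ lines were well above background. The same held for Fzd5, above 0, whereas Fzd3, also above 0, was tested through the Ip6k1-/- lines alone. The filter thus bears on these counts.

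**Figure D2:**
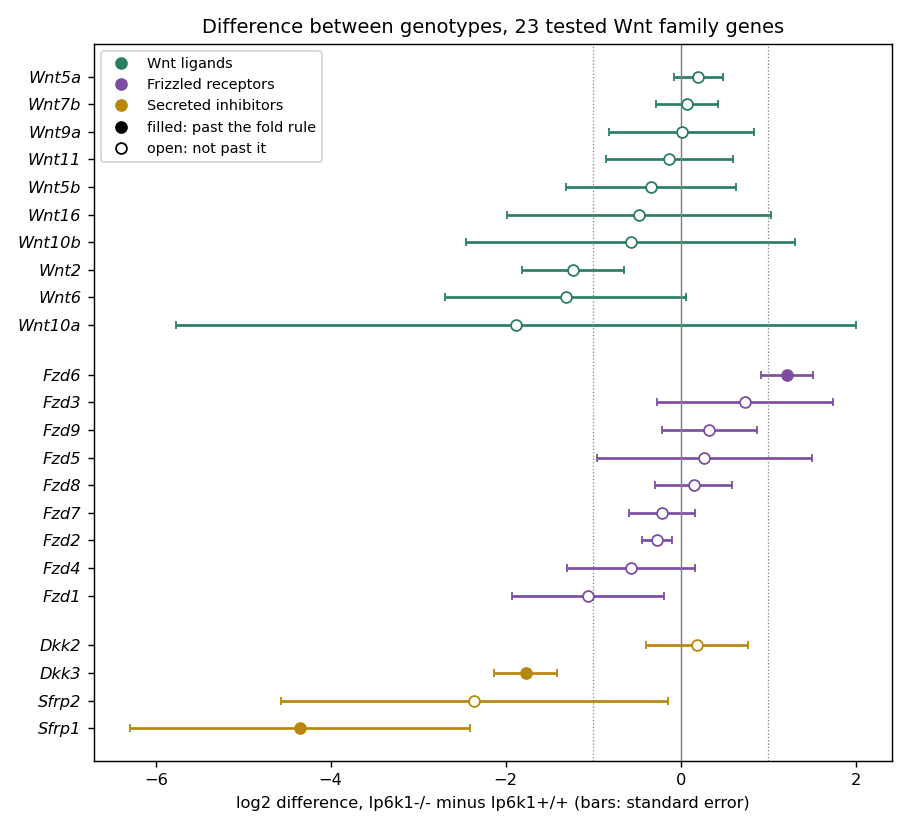
Difference between genotypes for each tested member. The horizontal axis is the mean log2 signal of the 2 Ip6k1-/- lines minus that of the 2 Ip6k1+/+ lines, bars are limma standard errors, and dotted lines mark a 2-fold difference. Filled points passed the fold rule: Fzd6 at 1.22, Dkk3 at -1.77 and Sfrp1 at -4.35.

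Among the inhibitors, 3 of the 4 tested genes had a lower mean level in Ip6k1-/- MEFs, and the median difference was -2.07. On probes well above background on every array, which leaves out Sfrp1, the median was -1.77. Dkk3, the divergent Dickkopf, was at 0.69 and 0.11 in the Ip6k1+/+ lines and at -1.66 and -1.09 in the Ip6k1-/- lines. The lines of the genotypes did not overlap, and the gap between them was wider than the gap within either. The difference was -1.77 (standard error 0.36, n = 2 lines per genotype), or 3.41-fold lower, with an unadjusted p of 0.00502 and an adjusted p of 0.993 in limma. Leaving out any 1 line kept the Dkk3 difference between -2.06 and -1.48, and Dkk3 passed the fold rule each time.

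Sfrp1, a Frizzled-related protein that can bind Wnt ligands, was at 1.33 and -3.73 in the Ip6k1+/+ lines and at -4.04 in Ip6k1-/- replicate 2. In Ip6k1-/- replicate 1 it was not well above background, at -7.06. Ip6k1+/+ replicate 1 stood far above the other 3 lines. The difference was -4.35 (standard error 1.94, n = 2), with an adjusted p of 0.993 in limma. It was -1.82, short of the fold rule, without Ip6k1+/+ replicate 1, -2.84 without the undetected Ip6k1-/- replicate 1 and -2.29 with normexp, another background correction. As run here, normexp adds an offset of 50 to every signal, which by itself draws the differences of dim probes towards 0. The other Sfrp1 probe, whose position is given above, ordered the Ip6k1+/+ lines the opposite way. On it the level was -4.82 in replicate 1 and -2.66 in replicate 2, and neither Ip6k1-/- line was well above background, which puts the mean of Ip6k1+/+ MEFs at least 1.97-fold higher. Since the lowest signals well above background on the Ip6k1-/- arrays were -4.754 and -4.675, Ip6k1+/+ replicate 1 cannot be ranked above these lines on that probe. The summed level of 3 cartilage markers was 7.94 and 2.69 in Ip6k1+/+ against 2.78 and 0.336 in Ip6k1-/- MEFs, also with Ip6k1+/+ replicate 1 above the rest. The other lines were ordered differently, as Ip6k1-/- replicate 1, where Sfrp1 was undetected, came next for the cartilage markers. Whether these markers go with the Sfrp1 levels was not tested.

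For the other inhibitors tested, the gap between lines of a genotype exceeded the difference between genotypes. Sfrp2, a second Frizzled-related protein, was at 4.00 and -2.04 in the Ip6k1+/+ lines and at 0.16 and -2.92 in the Ip6k1-/- lines. In each genotype replicate 1 was the higher, by 6.04 and 3.07, against a difference between genotypes of -2.36 (standard error 2.21). Sfrp2 did not pass the fold rule, but did with normexp, at -2.15, and without Ip6k1+/+ replicate 2 (-5.38) or Ip6k1-/- replicate 1 (-3.90). Dkk2, which binds Lrp co-receptors, was at 0.06 and -0.98 in the Ip6k1+/+ lines and at -0.89 and 0.36 in the Ip6k1-/- lines. Its higher line in each genotype was the line with Xist signal, as it also was for Dkk3 and for the first Sfrp1 probe. The Dkk2 difference between genotypes was 0.19 (standard error 0.58), and whether Dkk2 goes with Xist was not tested.

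The Frizzled receptors had a median difference of 0.15, with 5 genes above 0 and 4 below. On probes well above background on every array the median was -0.14. Fzd6, a receptor with a role in planar cell polarity, was at -0.58 and 0.03 in the Ip6k1+/+ lines and at 0.96 and 0.94 in the Ip6k1-/- lines. The Ip6k1-/- lines were almost equal and both above both Ip6k1+/+ lines. The difference was 1.22 (standard error 0.30, n = 2 lines per genotype), or 2.33-fold higher, with an unadjusted p of 0.0104 and an adjusted p of 0.993 in limma. Without Ip6k1+/+ replicate 1 it was 0.92 and the fold rule was not met. Of the markers, 1 of 4 endothelial genes was well above background on all arrays, and the summed level of the 4 was 0.126 and 0.0926 in Ip6k1+/+ against 0.164 and 0.377 in Ip6k1-/- MEFs. Cdh5, Pecam1 and Tek, the remaining genes on that list, were not well above background in any line. Whether these markers go with the Fzd6 levels was not tested.

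Fzd2, the receptor with the smallest standard error among the members, was at 3.56 and 3.63 in the Ip6k1+/+ lines and at 3.34 and 3.31 in the Ip6k1-/- lines. These groups did not overlap, but the difference was small, at -0.27 (standard error 0.18). The second Fzd2 probe, at -1.57 and -1.92 against -1.15 and -2.26, had a difference of 0.05 and overlapping lines. Fzd1, which like Fzd2 and Fzd7 belongs to a closely related group of receptors, was at 2.44 and 0.56 in the Ip6k1+/+ lines and at 1.32 and -0.45 in the Ip6k1-/- lines. Its difference of -1.06 (standard error 0.86) was smaller than the gap between the lines of either genotype. Fzd7 was at 0.51 and -0.31 against 0.08 and -0.30, with a difference of -0.21 (standard error 0.37) on this probe and -0.34 on the other.

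Fzd4, which also serves as the receptor of Norrin in blood vessels, was at 0.53 and -1.08 in the Ip6k1+/+ lines and at -0.14 and -1.55 in the Ip6k1-/- lines. Its difference was -0.57 (standard error 0.74), with replicate 1 the higher line in both genotypes. Fzd5 was at -2.85 and -3.62 in the Ip6k1+/+ lines, at -1.18 in Ip6k1-/- replicate 1 and undetected, at -4.75, in replicate 2. The genotypes overlapped, with a difference of 0.27 (standard error 1.23) on this probe and -0.06 on the other. Fzd3, a receptor known from axon guidance, was the only member with the higher level in replicate 2 of both genotypes. It was at -2.87 in Ip6k1+/+ replicate 2 and undetected, at -5.40, in replicate 1, and at -4.14 and -2.67 in Ip6k1-/- MEFs, so that the means differed by 0.74 (standard error 1.00). Fzd8 was at -1.41 and -2.41 against -1.59 and -1.94, with a difference of 0.15 (standard error 0.44). Fzd9 was at -3.52 and -4.86 against -3.88 and -3.84, with a difference of 0.33 (standard error 0.54), and for both genes the Ip6k1-/- lines lay within the Ip6k1+/+ range.

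The Wnt ligands had a median difference of -0.41, with 3 of 10 above 0, 7 below and none past the fold rule. Among those below, Wnt2, Wnt10a and Wnt10b passed the filter through the Ip6k1+/+ lines alone. On probes well above background on every array the ligand median was -0.13, and with normexp it was -0.07. Wnt5a, the main noncanonical ligand of mesenchymal cells, was nearly constant, at -2.01 and -1.91 in Ip6k1+/+ against -1.74 and -1.78 in Ip6k1-/- MEFs. The lines of the genotypes did not overlap, but the difference was only 0.20 (standard error 0.28). Wnt7b was at -3.43 and -3.57 against -3.19 and -3.67, with overlapping lines and a difference of 0.07 (standard error 0.35). Wnt2 was at -3.42 and -3.79 in the Ip6k1+/+ lines, not well above background in Ip6k1-/- replicate 1, at -5.55, and at -4.11 in replicate 2. Its difference of -1.23 (standard error 0.58) had an unadjusted p of 0.0911 and an adjusted p of 0.993 in limma, and replicate 2 was too close to the Ip6k1+/+ mean for the fold rule. The Wnt2 difference was -0.37 with normexp and ran from -1.95 to -0.51 with 1 line left out.

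The widest gaps between lines of 1 genotype were those of Wnt10a, which neighbours Wnt6 on chromosome 1. Wnt10a, a canonical ligand that acts in skin, tooth and fat precursor development, was at 5.21 in Ip6k1+/+ replicate 1 and close to it, at 4.37, in Ip6k1-/- replicate 1. In the other lines it was at -2.13 (Ip6k1+/+ replicate 2) and, below the detection flag, at -5.06 (Ip6k1-/- replicate 2). The gap was thus 7.35 between the Ip6k1+/+ lines and at least 9.05 between the Ip6k1-/- lines, taking the lowest signal well above background for the undetected line. The difference between genotypes was -1.88 with a standard error of 3.89, and -1.08 with normexp. Wnt6 was at 0.24 and -3.50 in the Ip6k1+/+ lines and at -2.06 and -3.82 in the Ip6k1-/- lines, with replicate 1 again the higher in both. Its difference was -1.31 (standard error 1.38) on this probe and -2.23 on the other, where replicate 1 was also the higher in both genotypes. The summed level of 3 adipocyte markers was 4.94 and 0.367 in Ip6k1+/+ against 3.28 and 0.556 in Ip6k1-/- MEFs, high in the same lines as Wnt10a. Of these markers 2 were well above background in all lines and Adipoq, which defines mature fat cells, in none, and their part in the Wnt10a levels was not tested.

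Wnt10b, a ligand known to hold back fat cell formation, was at -2.28 and -3.81 in the Ip6k1+/+ lines, at -0.87 in Ip6k1-/- replicate 1 and undetected, at -6.36, in replicate 2. The Ip6k1-/- lines enclosed both Ip6k1+/+ lines, and the difference of -0.57 (standard error 1.88) became 0.19 with normexp background correction. Wnt16 was at -0.40 and -4.82 in the Ip6k1+/+ lines and at -2.51 and -3.65 in the Ip6k1-/- lines, which lay within the Ip6k1+/+ range. The difference was -0.47 (standard error 1.51). Wnt5b, a noncanonical ligand, was at -1.56 and -2.84 against -1.27 and -3.80, with a difference of -0.34 (standard error 0.97). Wnt11, which has the TCF/LEF core at the start site shown above but not at its other, was at -1.84 and -3.05 against -1.75 and -3.41. Its difference was -0.13 (standard error 0.73). In Wnt5b and Wnt11 alike the lines overlapped and replicate 1 was the higher in both genotypes.

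Wnt9a, a ligand active in joint formation, showed another arrangement. It was at -0.82 and 0.88 in the Ip6k1+/+ lines and at 0.92 and -0.83 in the Ip6k1-/- lines. The genotype means differed by 0.01 (standard error 0.83), while the lines fell into a high and a low pair that each held 1 line per genotype. The low pair was the pair of lines with Xist signal. An order that goes with or against Xist in both genotypes is not particular to Wnt9a. It was seen for all tested members except Fzd3 and the 13 with replicate 1 higher in both genotypes. Of all 14545 genes tested, 4292 had replicate 1 higher in both genotypes and 4882 had replicate 2 higher in both. Any gene in neither group goes with or against Xist, since the Xist lines carry opposite replicate numbers. Whether Wnt9a goes with Xist was not tested.

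For most members the lines of 1 genotype differed by more than the genotypes did. The gap between lines exceeded the difference between genotypes for 19 of 23 members (82.6%), a share near that of all genes (80.8%). The size of the gap was another matter: the median gap between lines of a genotype was 1.37 over the members, 1.59 over the ligands, 0.91 over the receptors and 2.14 over the inhibitors, against 0.33 over all genes tested. These medians take undetected values as measured. With such values set to the lowest signal well above background of their array, a choice made after seeing the data, they were 1.27, 1.59, 0.91 and 1.15, against 0.32 over all genes. A gap over 1 in either genotype was found for 16 of 23 members (69.6%) and for 19.9% of all genes (15 members and 19.2% at those floors). Replicate 1 was the higher line in both genotypes for 13 of 23 members (56.5%), against 29.5% of all genes. These were Wnt5b, Wnt6, Wnt7b, Wnt10a, Wnt10b, Wnt11, Wnt16, Fzd1, Fzd4, Fzd5, Fzd7, Fzd8 and Sfrp2. For 9 of them the gap was over 1 in both genotypes, which held for 3.58% of all genes. The labels do not say what, if anything, lines of the same number share, and all 4 arrays lay on 1 slide. What sets these gaps was not tested.

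**Figure D3:**
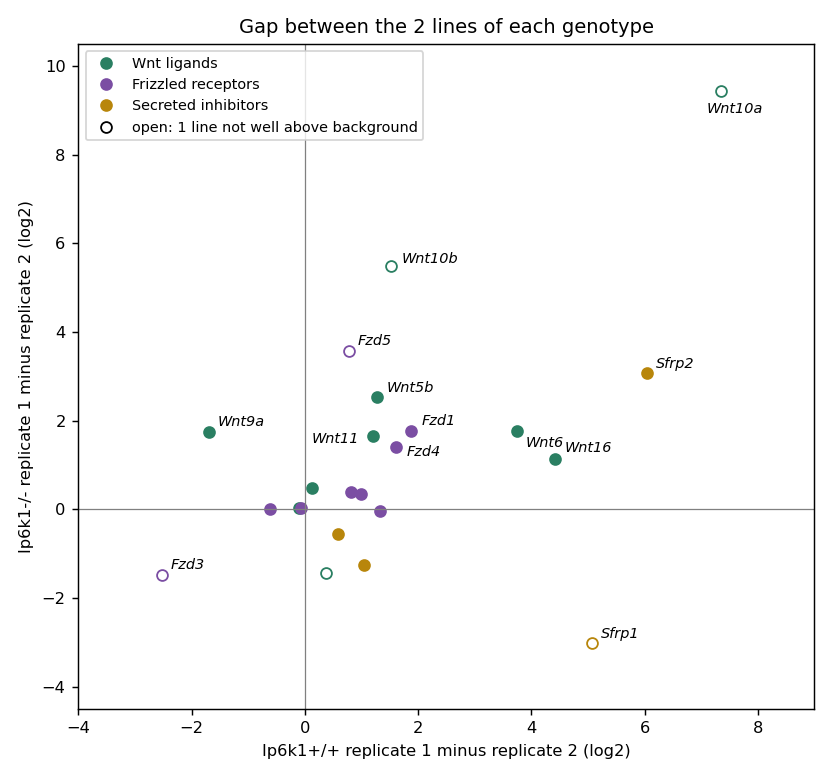
Gap between the lines of each genotype for each tested member. The horizontal axis is Ip6k1+/+ replicate 1 minus replicate 2 and the vertical axis the same for Ip6k1-/-, in log2 units, with members named where a gap was over 1.5. Points in the upper right, with Wnt10a the furthest, were higher in replicate 1 of both genotypes, and Fzd3 alone lies in the lower left. Open points hold a line not well above background, plotted as measured, so that Wnt10a at 7.35 and 9.43 stands for a gap of at least 9.05 in Ip6k1-/- MEFs.

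A list of 72 other genes of the pathway, without the members, was read in the same way. Of these 58 were tested (80.6%), their median difference was -0.06 with 26 above 0 and 32 below, and limma called none, with a lowest adjusted p of 0.849. At an unadjusted p of at most 0.05 stood 6 genes, against 3.66% of all genes, and by the fold rule 1 gene was higher and 6 were lower, against the 1.07% and 2.08% of all genes given above. Both Ip6k1-/- lines lay above both Ip6k1+/+ lines for 4 genes and below for 11, against 18.2% and 13.2% of all genes.

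Ctnnb1, which encodes beta-catenin, was at 3.77 and 3.77 in Ip6k1+/+ against 3.72 and 3.50 in Ip6k1-/- MEFs and so differed by -0.16. Axin2, a widely used target of beta-catenin, was undetected on every array. All 7 co-receptor genes tested had differences below 0, with a median of -0.32, where 6528 of all 14545 genes tested were below 0. Of the 7, Lgr4 alone passed the fold rule. Lrp5 was at 0.67 and 0.62 against -0.43 and 1.08, and Lrp6 at -2.39 and -2.54 against -2.70 and -2.70. Their differences were -0.32 (standard error 0.54) and -0.23 (standard error 0.30). Lgr4, a receptor for R-spondins, was at 0.89 and -1.38 in the Ip6k1+/+ lines and at -1.88 and -1.38 in the Ip6k1-/- lines. On this probe the difference of -1.39 rested on Ip6k1+/+ replicate 1, without which it was -0.25. A second tested Lgr4 probe was at 1.01 and -1.03 against -2.11 and -1.65. Its lines did not overlap between genotypes, and its difference of -1.87 also passed the fold rule. The noncanonical receptors Ror2 and Ryk differed by -0.24 (standard error 0.31) and -0.16 (standard error 0.23). Ror2 was at -1.33 and -1.56 against -1.48 and -1.89, and Ryk at 4.41 and 3.95 against 3.94 and 4.11.

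The genes that prepare the ligands for export were also close between genotypes. Porcn, which attaches the lipid to Wnt proteins, was at -1.24 and -1.77 in the Ip6k1+/+ lines and at -1.61 and -2.23 in Ip6k1-/- MEFs, a difference of -0.41. Wls, which carries them to the cell surface and is named Gpr177 in the files, was at 3.30 and 3.54 against 3.15 and 3.07, a difference of -0.31. The Wls lines did not overlap, whereas those of Porcn did.

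Further differences were seen among modulators and nuclear partners. Nkd2, which encodes an inhibitor that acts on Dishevelled, was the gene past the fold rule on the high side. It was at -0.83 and -0.31 in the Ip6k1+/+ lines and at 0.34 and 0.63 in Ip6k1-/- MEFs, and the genotypes differed by 1.06 (standard error 0.30, unadjusted p of 0.0189 in the fit of limma across all genes). On this probe Nkd2 missed the fold rule with normexp (0.96), with the deposited log2 values (1.04) and without Ip6k1+/+ replicate 1 (0.80) or Ip6k1-/- replicate 2 (0.91). A second, dimmer Nkd2 probe was undetected in Ip6k1+/+ replicate 1. Its difference of 1.24 also passed the fold rule, and its lines did not overlap between genotypes. Dvl1, a Dishevelled gene, was at 2.39 and 2.09 against 2.92 and 2.75, a difference of 0.59, and neither gene's lines overlapped. Tle2, a Groucho family co-repressor of TCF, was at 1.85 and 1.40 against 0.55 and 0.14, a difference of -1.28 (standard error 0.29). Tcf7l1, a mostly repressive TCF, was at 3.17 and 3.15 against 2.70 and 2.60, a difference of -0.51. The genotypes did not overlap for either of these nuclear factors.

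Pygo1, a beta-catenin co-activator, was at -4.22 and -4.85 in the Ip6k1+/+ lines and did not stand well above background in either Ip6k1-/- line. Ip6k1+/+ MEFs were at least 1.13-fold higher. The unadjusted p was the lowest of the list (0.00189, adjusted p of 0.849 in limma). It takes the undetected Ip6k1-/- values of -7.06 and -6.99 as measured, however, and so does not measure the spread of expression in those lines. Daam2, a formin of the noncanonical branch, was at -3.84 and -3.42 against levels not well above background, a bound of at least 2.12-fold higher for Ip6k1+/+ cells. On a second tested Daam2 probe, at -2.63 and -3.51 and undetected in both Ip6k1-/- lines, the bound was 3.13-fold. Both genes were thus detected in the Ip6k1+/+ lines alone. With normexp neither passed the fold rule, and the differences were -0.39 for Pygo1 and -0.41 for Daam2 on its first probe. The Daam2 difference was smaller than the bound stated for that probe. Rspo2, an R-spondin that enhances Wnt signals, was at 3.52 and -0.28 against 0.07 and -1.04, a difference of -2.11. Rnf43, a ligase that removes Frizzled from the cell surface, was at -0.18 and -4.17 against -3.39 and, not well above background, -4.88, a difference of -1.95. In Rspo2 and Rnf43 alike Ip6k1+/+ replicate 1 stood far above the other lines, and without it the differences were -0.21 and 0.043. With normexp the Rnf43 difference was -1.11 and missed the fold rule. Lef1, the nuclear partner that is itself a common target, was at -3.58 and -0.36 against -2.00 and -0.85, within the Ip6k1+/+ range, with a difference of 0.55.

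**Figure D4:**
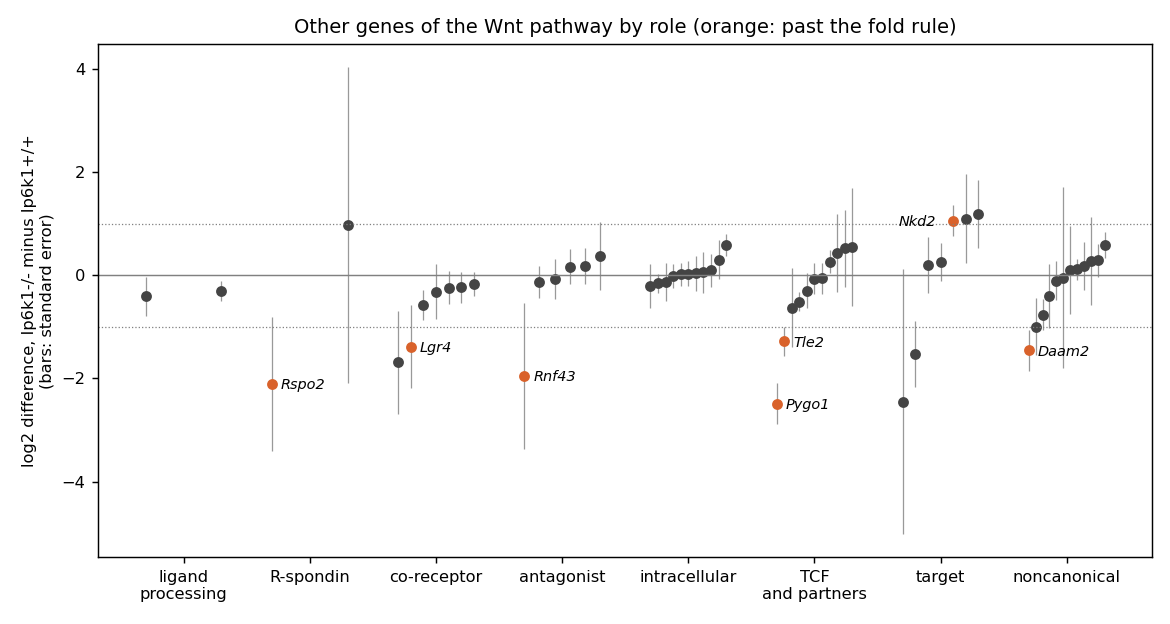
Differences of the 58 tested genes of the pathway list by role. The vertical axis is the log2 signal of Ip6k1-/- minus Ip6k1+/+ MEFs with limma standard errors, each point is a gene ordered by its value within its role, and dotted lines mark a 2-fold difference. Orange points passed the fold rule, with Nkd2 above 0 and Rspo2, Lgr4, Rnf43, Tle2, Pygo1 and Daam2 below.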

How the data were processed

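Gene expression was measured on 1 single-colour Agilent array per line, for 2 Ip6k1+/+ and 2 Ip6k1-/- MEF lines. The authors deposited the spot intensity from Feature Extraction 10.5.1.1, background-corrected and on a linear scale, with flags for spots above background, saturated or outlying (unit: other, per the file headers), and log2 values after a 75th percentile shift, which differ from those used here by a constant of 0.084 to 0.111 per array (column medians -4.13 to -4.04).

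The 75th percentile over the 43379 non-control spots of an array was subtracted from its log2 signal. Outlier spots (96 to 133 per array) were left out and spots of a probe averaged. Probes well above background on both arrays of a genotype were tested (21572 of 41174) in limma 3.58.1 under R 4.3.3 (lmFit, then eBayes allowing a variance trend), and p-values were adjusted by Benjamini-Hochberg over these probes. A gene stands for its tested probe of highest mean level. A lower bound ("at least") sets the brighter genotype against, per array, the higher of the lowest signal well above background and the dim probe's own. Named genes are all members, fixed genes of the pathway list and those of it past the fold rule or at an unadjusted p of at most 0.05. The members and lists were chosen with earlier results of these data known. Alternatives covered normalization, background correction, filters, tests, omission of each array in turn and replicate number as a block. The number of arrays limits the precision.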

Additional observations from a re-analysis of the deposited data

How the results depend on the processing

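Of 41 differences of named genes, 21 kept their sign in every alternative run. With an array left out, 20 turned. The ranges of these over the 4 arrays left out in turn were Dkk2 -0.44 to 0.81, Fzd3 -0.53 to 2.00, Fzd4 -1.37 to 0.24, Fzd5 -1.52 to 2.06, Fzd7 -0.62 to 0.20, Fzd8 -0.35 to 0.64, Fzd9 -0.34 to 1.00, Lef1 -1.06 to 2.16, Lrp5 -1.07 to 0.44, Rnf43 -3.95 to 0.043, Ryk -0.39 to 0.069, Sfrp2 -5.38 to 0.66, Wnt10a -6.60 to 2.83, Wnt10b -3.32 to 2.17, Wnt11 -0.96 to 0.70, Wnt16 -2.69 to 1.74, Wnt5b -1.61 to 0.93, Wnt6 -3.19 to 0.56, Wnt7b -0.17 to 0.31 and Wnt9a -0.87 to 0.89. Otherwise only Wnt10b (0.19) and Wnt9a (-0.0008) turned, both with normexp. Leaving out an array moved the fold rule to 1 to 4 members higher and 1 to 11 lower, and to 2 to 6 pathway genes higher and 3 to 13 lower. Without Ip6k1-/- replicate 1 there were 11 lower members and 13 lower pathway genes, without Ip6k1+/+ replicate 2 there were 6 lower members, without Ip6k1-/- replicate 2 there were 4 higher members, and without Ip6k1+/+ replicate 1 there were 1 lower member and 3 lower pathway genes. The median difference then ran from -1.16 to 0.51 for ligands, -0.34 to 0.24 for receptors and -3.72 to -0.41 for inhibitors. Normexp gave 3 members lower, Sfrp2 being the one gained, and 0 pathway genes higher and 3 lower, as Nkd2, Pygo1, Daam2 and Rnf43 then missed the rule. The deposited log2 values gave 0 pathway genes higher, as Nkd2 missed it. Without a filter on dim probes there were 2 pathway genes higher, and the inhibitor median was -0.023, since 4 undetected genes then entered it. With probes well above background on all 4 arrays 1 member was lower, as Sfrp1 then had no tested probe, and 3 pathway genes were lower. By the mean difference alone 1 member was higher and 7 were lower, and 3 pathway genes were higher and 9 lower. The methods' t-test put 2 members and 3 pathway genes at an unadjusted p of at most 0.05 and 0 after adjustment. The replicate numbers could not be shown to pair the lines: with 2 pairs, the gaps between lines correlated at 0.48 across probes. With the replicate block, limma called 0 members, with 5 members and 14 pathway genes at an unadjusted p of at most 0.05, where there were 2 and 6 without it, while the share of all genes at that level went from 3.66% to 8.99%. Where no cause is named, it was not tested.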

Other observations

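Further genes of the pathway list, picked after their values were seen, split by line. Rspo1, an R-spondin, was at 2.43 in Ip6k1+/+ replicate 1 and 2.58 in Ip6k1-/- replicate 1, against -3.17 in Ip6k1-/- replicate 2 and an undetected -4.97 in Ip6k1+/+ replicate 2. Wisp2, a secreted protein of the Ccn family induced by Wnt1 in other cells, was at 3.99 and 0.52 in the Ip6k1+/+ lines and at 3.34 and -3.72 in the Ip6k1-/- lines. Rspo1 and Wisp2 were thus highest in the lines in which Wnt10a was highest. Wisp1, a relative of Wisp2, was at 4.17 and 5.38 against 4.46 and 5.48, higher in replicate 2 of both genotypes. Myc, a target of beta-catenin in some tissues, was at 2.64 and 3.53 against 3.09 and 3.60.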
